A study of Mus musculus with 6 samples.

Results

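Purinergic receptors sense nucleotides outside the cell, and dying cells release ATP and UTP that draw macrophages to them. Here 9 genes were followed: the G protein-coupled receptor genes P2ry2, P2ry6, P2ry12, P2ry13 and P2ry14, the ATP-gated channel genes P2rx1, P2rx4 and P2rx7, and Entpd1, which encodes CD39, an enzyme that strips phosphates from extracellular ATP and ADP. They were selected by gene symbol, matched to Ensembl identifiers without version numbers, from 56691 genes in the files, and all 9 were found. The choice was made with the thiothixene-DMSO values of these libraries in view, so the fold changes of the 9 genes are descriptions and carry no test.

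Bone marrow-derived macrophages, grown in culture from marrow precursors of 3 mice named a, b and c, received 2 µM thiothixene, an antipsychotic that blocks dopamine receptors, or the solvent DMSO for 24 h on day 6 of culture. Per the titles, a thiothixene library and a DMSO library came from each mouse, giving 3 libraries per treatment. The study's methods state no pairing. The labels used here name no strain, sex or age. The series title concerns dopamine antagonism, vitamin A, Arg1 and repeated uptake of dead cells, and the comparison asked how transcripts differed after drug exposure.

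P2Y receptors signal through G proteins and P2X receptors are cation channels. P2Y2 answers to ATP and UTP and is a known receptor for the find-me signal of apoptotic cells. P2Y6 prefers UDP and has been linked to phagocytosis. P2Y12 and P2Y13 respond to ADP, P2Y14 to UDP-sugars. P2X7 opens at high ATP and feeds the NLRP3 inflammasome, P2X4 is largely lysosomal in macrophages, and CD39 limits ATP and ADP signals by removing these ligands.

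Gene counts per library ran from 10472349, in the DMSO library of mouse b, to 22297520. The macrophage markers Adgre1, Csf1r, Cd68 and Lyz2 were abundant in all 6 libraries, whereas Itgam, which encodes the integrin CD11b, had 1 count in total. Correlations of log2 CPM (counts scaled to a common library size) over all tested genes ranged from 0.825 (mouse b against mouse c with DMSO) to 0.981 (the same mice with thiothixene). Quality weights were lowest for DMSO in mice b and c (0.209 and 0.228) and for thiothixene in mouse a (0.537), and these 3 are called the libraries that stand apart. Summed neutrophil markers spanned 336 to 402 CPM with thiothixene and 362 to 857 CPM with DMSO, platelet and megakaryocyte markers 294 to 495 against 340 to 1523 CPM, and stromal markers 54.3 to 285 against 94.5 to 163 CPM. The highest macrophage, neutrophil and platelet sums were all in the DMSO library of mouse b. All 8 tested neutrophil markers and all 3 tested platelet markers had log2 fold changes below 0, with medians of -0.55 and -0.53. Gp1bb, a defining platelet gene, was at 0 in every library, as were Ms4a1 and Cd3d of lymphocytes and Mcpt4, Tpsb2 and Fcer1a of mast cells. The platelet sum was nearly all Pf4, and Lyz2 was the largest part of the macrophage sum. Because CD11b is a defining protein of macrophages, a count near 0 in these tables, of a marker or of a member, was not read as absence of the transcript. The part of these cell types in the results below was not tested.

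Over the whole table, edgeR's quasi-likelihood test with Benjamini-Hochberg adjustment called 0 of 14856 tested genes (0%), and so 0 of the 9 genes, all of which passed its filter on low counts. An unadjusted p under 0.05 was reached by 256 genes (1.72% of those tested), among them P2ry2, P2ry12 and P2ry13. As the 9 genes were chosen with this contrast known, nothing is read from that share. DESeq2 called 8 genes (0.0539%) after the same filter and 2 (0.00815%) without it, and edgeR without the filter called 1 (0.00408%). limma-voom called 0, and 25 (0.168%) with library quality weights. None of the 9 was among these calls. Without the 3 libraries that stand apart edgeR called 1105 genes (6.99%), P2ry2, P2ry12 and P2rx7 among them. Of the 9 genes, 2 had a log2 fold change (thiothixene minus DMSO) above 0 and 7 below 0, with a median of -0.23. Over all tested genes, 6735 were above and 8121 below 0, with a median of -0.04.

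**Figure D1:**
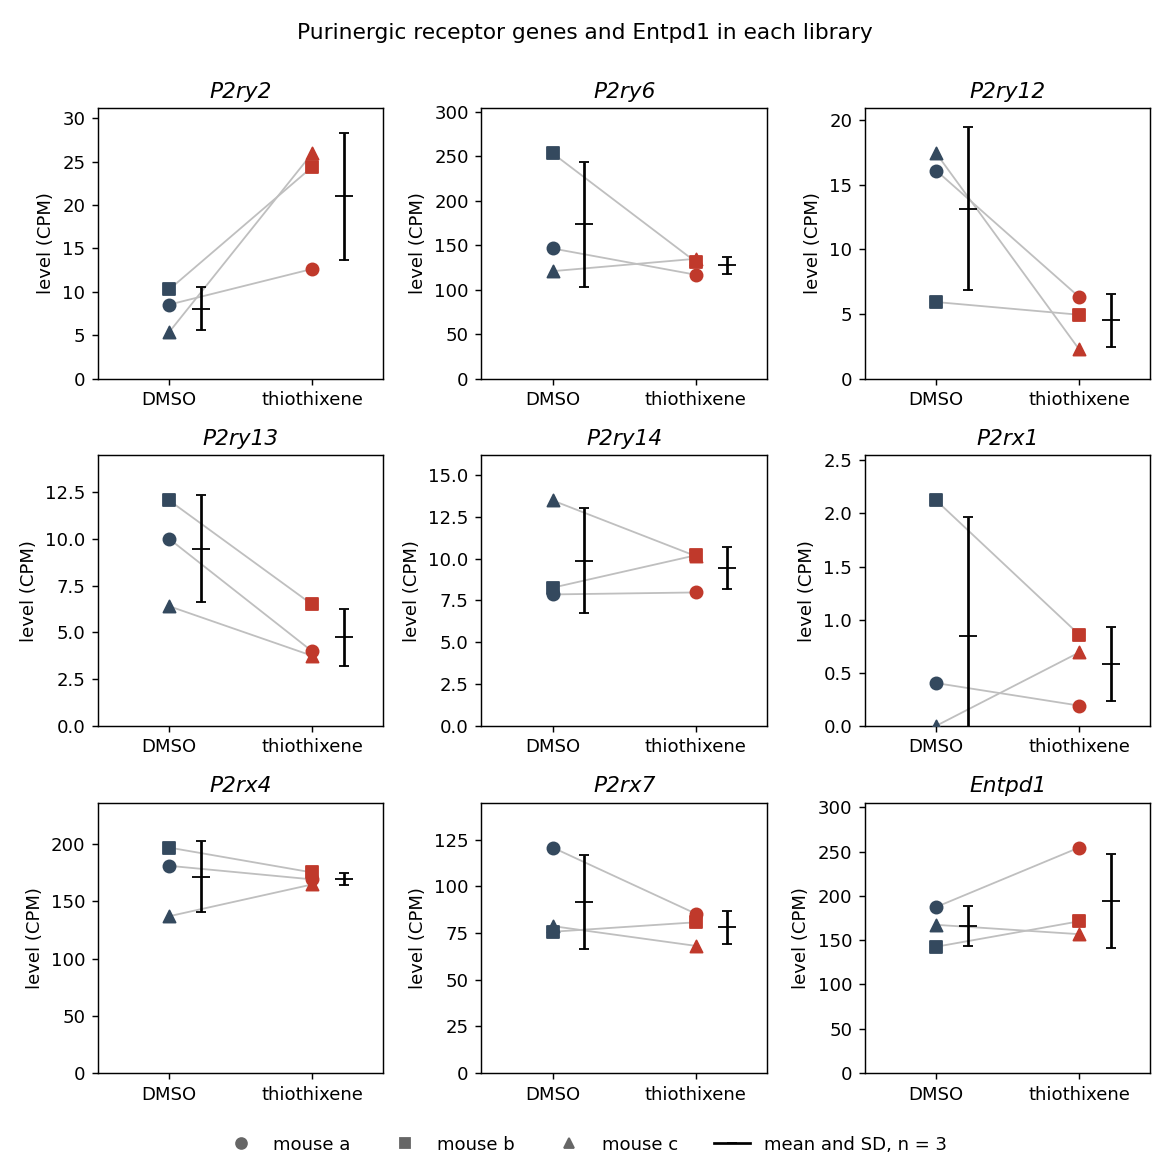
Levels of the 9 genes in CPM (y axis, from 0) in each library, with grey lines joining the DMSO and thiothixene libraries of a mouse and black bars for mean and SD (n = 3). P2ry2 was higher with thiothixene in all 3 mice (12.6 to 25.9 against 5.38 to 10.3 CPM), and P2ry12 and P2ry13 were lower in all 3, while the DMSO bar of P2rx1 runs below 0 and is cut there.

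**Figure D2:**
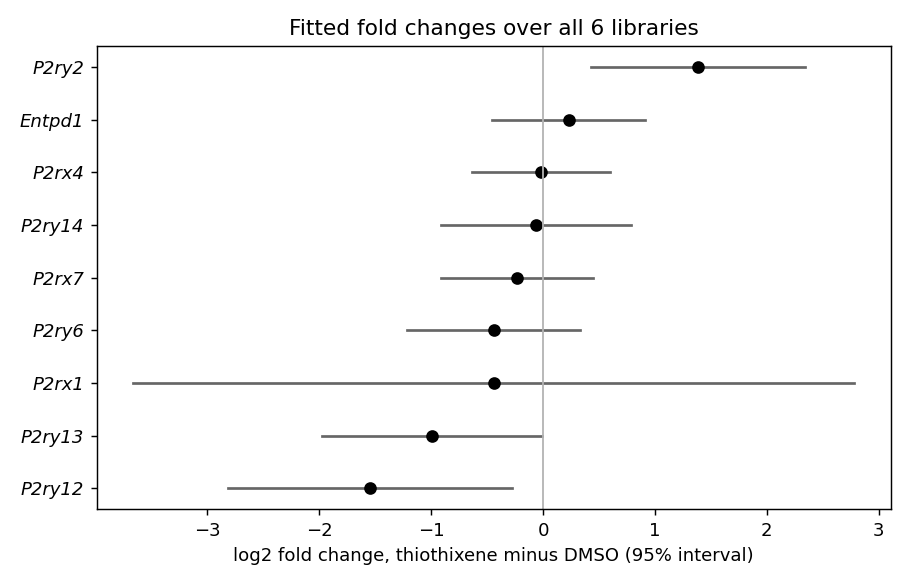
Log2 fold changes (thiothixene minus DMSO, x axis) of the 9 genes with 95% intervals from edgeR over all 6 libraries. The intervals of P2ry2 (0.43 to 2.34), P2ry12 (-2.81 to -0.28) and P2ry13 (-1.98 to -0.01) lay on 1 side of 0. These intervals are not adjusted for the number of genes tested. An unadjusted edgeR p under 0.05 was reached by 1.72% of all tested genes, and an adjusted one by 0%.

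P2ry2 had the highest log2 fold change of the 9 genes. Its gene (ENSMUSG00000032860.6) lies on the minus strand of chromosome 7, from 100996568 to 101012866 in GRCm38. With thiothixene, mice a, b and c gave 266, 454 and 526 counts, or 12.6, 24.4 and 25.9 CPM. With DMSO the same mice gave 191, 92 and 126 counts, or 8.53, 10.3 and 5.38 CPM. The 3 thiothixene libraries were all above the 3 DMSO libraries, a pattern that 3.88% of all tested genes showed in this direction (3.95% on plain library totals, 3.79% on RLE size factors) and 2.77% in the other, 6.65% in all. It was the only one of the 9 with groups that did not overlap on TMM-scaled CPM. P2ry2 was higher with thiothixene in 3 of 3 mice, as were 7.49% of tested genes. Mean levels were 20.98 ± 7.27 CPM after the drug and 8.06 ± 2.48 CPM after DMSO (SD, n = 3), a fitted log2 fold change of 1.39 (SE 0.42), or 2.61-fold. The log2 ratio within a mouse ranged widely, from 0.57 in mouse a through 1.25 in b to 2.27 in c. Under the 20 alternative settings the log2 fold change stayed between 0.99 and 1.69. In the fit without the 3 libraries that stand apart it was 1.57 (SE 0.22). That fit compares thiothixene from mice b and c with a lone DMSO library from mouse a, so drug and mouse cannot be told apart. The libraries left out were those farthest from the rest of their group, which by itself narrows the spread.

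P2ry6, next to P2ry2 on chromosome 7 (100937630 to 100974649, minus strand, ENSMUSG00000048779.6), had the highest level per length of the 9. Its levels were 117, 131 and 135 CPM with thiothixene and 146, 253 and 121 CPM with DMSO in mice a, b and c. The DMSO library of mouse b was far above the other 5, which lay between 117 and 146 CPM. Means were 128 ± 9.50 and 173 ± 70.2 CPM (SD, n = 3), and the log2 fold change was -0.44 (SE 0.34, 95% interval -1.21 to 0.33). Without the DMSO library of mouse b it was -0.06, so most of the difference rested on that library. That library also had the highest macrophage marker sum (17044 CPM), of which Lyz2 made up 11651 CPM. Lyz2, Cd68 and Fcgr1 were highest there, whereas Mertk was lowest (93.2 CPM) and Adgre1 (1087 CPM) was below DMSO in mice a and c. The part of these markers in the result was not tested. P2ry2 and P2ry6 lie side by side and are transcribed in the same direction, with log2 fold changes on opposite sides of 0.

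P2ry12 was lower with thiothixene, with the DMSO libraries split. It lies on the minus strand of chromosome 3, from 59216272 to 59262871 (GRCm38, ENSMUSG00000036353.14). Counts were 133, 92 and 46 with thiothixene in mice a, b and c, and 360, 53 and 408 with DMSO. On the CPM scale these were 6.32, 4.94 and 2.27 against 16.1, 5.92 and 17.4. The DMSO libraries of mice a and c were far above every thiothixene library, whereas the DMSO library of mouse b fell within the thiothixene range. Means were 4.51 ± 2.06 and 13.1 ± 6.28 CPM (SD, n = 3), and the log2 fold change was -1.55 (SE 0.55), or 0.342-fold. Thiothixene was the lower library in 3 of 3 mice, as for 6.82% of all tested genes, by log2 ratios of -1.35, -0.26 and -2.94. Leaving out mouse c gave a log2 fold change of -0.97, the smallest in size under any setting. Without the 3 libraries that stand apart the value was -2.16, under the same limits of a lone DMSO library and of the choice of libraries. P2ry12 is also a known platelet gene. Of the DMSO libraries, that of mouse b had the highest Pf4 and Itga2b (1507 and 9.61 CPM) and that of mouse c the highest Ppbp and Gp6 (6.91 and 1.19 CPM), so the platelet markers gave no single order to set beside P2ry12, and their part was not tested.

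P2ry13, the neighbour of P2ry12 on the same strand (chromosome 3, 59207892 to 59210882, ENSMUSG00000036362.3), was lower with thiothixene in all 3 mice. Counts were 84, 121 and 76 with thiothixene and 224, 108 and 150 with DMSO for mice a, b and c. Levels were 3.99, 6.50 and 3.75 CPM with thiothixene and 10.004, 12.1 and 6.40 CPM with DMSO. The groups overlapped at a single point, since mouse b with thiothixene stood at 6.50 CPM and mouse c with DMSO at 6.40 CPM. On plain library totals or RLE size factors the groups did not overlap, which held in that direction for 2.47% and 2.87% of all tested genes. Means were 4.74 ± 1.52 against 9.49 ± 2.87 CPM (SD, n = 3), and the log2 fold change was -0.996 (SE 0.43), or 0.501-fold. Log2 ratios within mice were -1.33, -0.89 and -0.77. Across settings the value ranged from -1.29 to -0.79 and passed an adjusted p of 0.05 in none of them.

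Promoter windows are shown for P2ry2 and P2ry13, a gene on each side of 0 whose 250 bases before the RefSeq start (GRCm38.p6) hold no annotated exon. Each is written 5′ to 3′ on the gene's strand, ends at the base before the start (the P2ry2 window lies inside the longer GENCODE gene), and carries motif matches on either strand in capitals. The P2ry2 window is chr7:101012054-101012303 and the P2ry13 window chr3:59210883-59211132, both on the minus strand.
P2ry2: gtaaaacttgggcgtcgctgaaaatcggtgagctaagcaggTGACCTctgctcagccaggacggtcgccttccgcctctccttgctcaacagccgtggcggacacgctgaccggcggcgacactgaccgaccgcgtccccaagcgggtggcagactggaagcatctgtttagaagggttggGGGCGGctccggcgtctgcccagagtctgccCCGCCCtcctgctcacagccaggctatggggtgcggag
P2ry13: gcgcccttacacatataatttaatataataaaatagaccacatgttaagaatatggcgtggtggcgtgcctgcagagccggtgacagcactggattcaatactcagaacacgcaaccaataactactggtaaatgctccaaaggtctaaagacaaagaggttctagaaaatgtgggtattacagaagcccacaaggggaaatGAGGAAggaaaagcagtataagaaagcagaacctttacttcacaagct

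Capitals in the P2ry2 window mark a nuclear receptor core site (AGGTCA, here as its reverse complement, beginning 209 bases before the start) and 2 GC boxes (GGGCGG, 69 and 38 bases before it, the nearer one reversed). In P2ry13 they mark a PU.1 core (GAGGAA, 48 bases before the start). The search used these 3 motifs with the E-box CACGTG and the AP-1 site TGACTCA, each on both strands, with no overlap among the matches shown. G and C made up 65.2% of the P2ry2 window and 41.6% of that of P2ry13. The longest transcripts differed in the same sense, with 56.5% in P2ry2 against 38.6% in P2ry12 and 44.7% in P2ry13. With offsets for GC content and length the log2 fold changes were 1.29, -1.47 and -0.97. Of 32851 windows in the table, 14% held AGGTCA, 32.7% GGGCGG and 23.3% GAGGAA. Of the 8 members with a window, AGGTCA occurred in P2ry2, P2ry12 and P2rx4, which differed in direction, and GAGGAA in P2ry13 and P2ry14. The whole P2ry12 window is covered by annotated exons and is not shown. P2ry6 had no entry in the table.

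P2ry14 completes the cluster on chromosome 3 (59113855 to 59153618, minus strand, ENSMUSG00000036381.14) and had a log2 fold change near 0. Its levels were 7.98, 10.2 and 10.2 CPM with thiothixene and 7.86, 8.27 and 13.5 CPM with DMSO in mice a, b and c, from 74 to 316 counts per library. The thiothixene libraries lay inside the DMSO range. Its log2 fold change of -0.07 (SE 0.37) had an interval of -0.91 to 0.78, so changes in either direction were within the error.

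The 3 cluster genes lie inside Med12l, a gene of the Mediator kinase module transcribed from the opposite strand (chromosome 3, 59005825 to 59318682). Exons of P2ry12 and Med12l share 9 bases in the annotation, and P2ry13 and P2ry14 share none with it. Med12l measured 28.1, 19.6 and 12.8 CPM with thiothixene and 35.6, 23.6 and 42.5 CPM with DMSO in mice a, b and c. Its 6 libraries ranked in the same order as those of P2ry12 (Spearman's rho 1, Pearson's r 0.973 on log2 CPM, n = 6 libraries from 3 mice). Without the 2 libraries farthest from the median of Med12l, r was 0.910. For P2ry13 against Med12l r was 0.412 and rho 0.257, with r 0.0963 without those libraries. For P2ry14 r was 0.100 and rho -0.0857, with r -0.846 without them. Med12l was followed closely by P2ry12 and by neither of the other genes within it. The log2 fold change of Med12l was -0.75 (SE 0.39). No source used here states that strand was used in counting, so reads from P2ry12 and from unspliced Med12l transcripts cannot be told apart.

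Of the 36 pairs among the 9 genes, P2ry2 and P2ry12, the genes of highest and lowest log2 fold change, had the most negative correlation, and the pair was picked for that. Pearson's r of log2 CPM was -0.897 and Spearman's rho -0.943 over the 6 libraries. Without thiothixene in mice b and c, the 2 libraries farthest from the median of P2ry2, r was -0.841. The highest r of any pair, 0.884 for P2rx1 and P2rx4, was 0.00266 without DMSO in mice b and c. The points share mice across treatments and the treatment itself, so this is a description. The DMSO library of mouse b and the thiothixene library of mouse a sat next to each other in both genes, at 10.3 and 12.6 CPM for P2ry2 and 5.92 and 6.32 CPM for P2ry12.

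**Figure D3:**
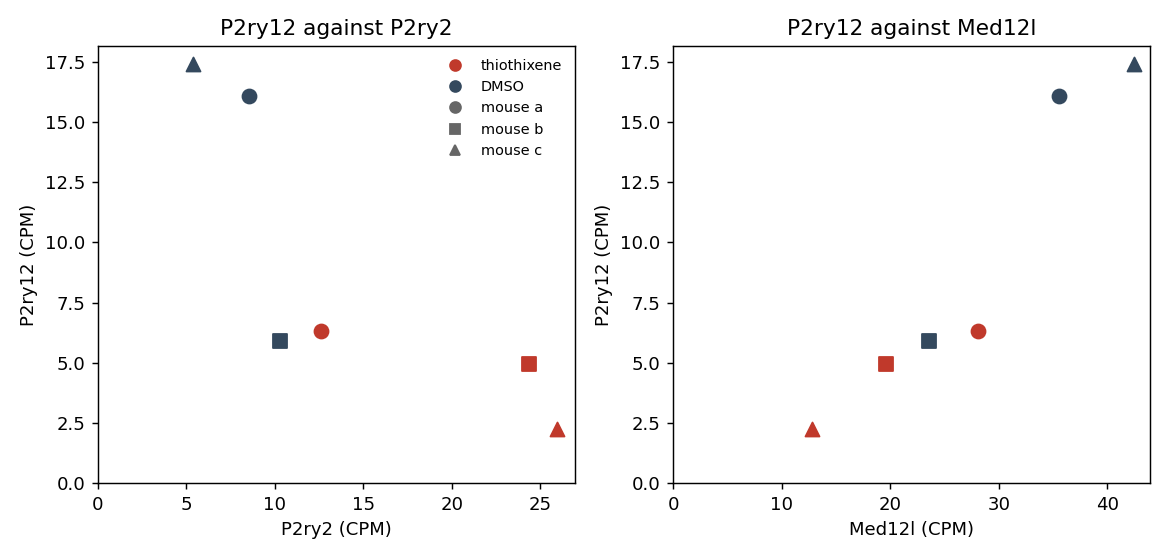
P2ry12 (CPM, y axis) against P2ry2 (left) and Med12l (right, both in CPM) in the 6 libraries, coloured by treatment with a symbol per mouse. The DMSO libraries of mice a and c form the high end for P2ry12 (16.1 and 17.4 CPM), and the thiothixene library of mouse c the low end (2.27 CPM).

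The genes whose log2 CPM followed P2ry12 most closely over the 6 libraries were Gm11613 (r 0.991), Terf2 (r 0.984) and Dhx40 (r 0.983). Their own log2 fold changes were -0.44, -0.29 and -0.56. P2ry12 was taken as the gene of largest fold change among the 9. Entpd1, taken as the gene of highest mean CPM, was followed most closely by Dtnb (r 0.9746), Lncppara (r 0.974) and Boll (r 0.973). Boll averaged 0.695 CPM, so its pattern rests on few counts.

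Among the ATP-gated channels, P2rx4 and P2rx7 were abundant and lie next to each other on the plus strand of chromosome 5 (122707544 to 122729738 and 122643911 to 122691432). P2rx4 (ENSMUSG00000029470.16) measured 169, 175 and 165 CPM with thiothixene and 181, 197 and 137 CPM with DMSO. The thiothixene libraries lay inside the DMSO range. Its log2 fold change was -0.02 (SE 0.27), and the 95% interval of -0.63 to 0.60 is the narrowest of the 9. P2rx7 (ENSMUSG00000029468.18) measured 85.3, 80.7 and 68.1 CPM with thiothixene and 121, 75.6 and 78.6 CPM with DMSO. The DMSO library of mouse a alone lay above the rest. Exons of P2rx7 share 119 bases with the microRNA gene Mir8115 on the same strand. The log2 fold change was -0.23 (SE 0.30, 95% interval -0.91 to 0.45), and without that library it was 0.02. In the fit without the 3 libraries that stand apart, whose lone DMSO library is that same one, it was -0.69.

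P2rx1 (chromosome 11, 72999103 to 73015200, plus strand, ENSMUSG00000020787.15), a channel best known from platelets and smooth muscle, was near the limit of detection. Counts were 4, 16 and 14 with thiothixene and 9, 19 and 0 with DMSO in mice a, b and c. For DMSO in mouse c, the 0 counts leave a level of at most 0.128 CPM by counting error alone. The highest level, 2.12 CPM, was in DMSO of mouse b. Of the platelet markers Pf4 and Itga2b were also highest there. Ppbp and Gp6 (the latter at 28 counts) were highest in DMSO of mouse c, where P2rx1 had 0 counts. The log2 fold change was -0.44 with an SE of 1.41, and its sign turned in 6 of 18 alternative settings. No direction can be given for this gene at these counts.

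Entpd1 (chromosome 19, 40612366 to 40741602, plus strand, ENSMUSG00000048120.17) was the enzyme of the group and its most counted gene. Levels were 255, 171 and 157 CPM with thiothixene and 187, 143 and 167 CPM with DMSO. The thiothixene library of mouse a was highest, and the other 5 lay between 143 and 187 CPM. Means were 194 ± 52.8 and 166 ± 22.5 CPM (SD, n = 3), with a log2 fold change of 0.23 (SE 0.30, 95% interval -0.46 to 0.91). Without the thiothixene library of mouse a the value was -0.01.

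**Figure D4:**
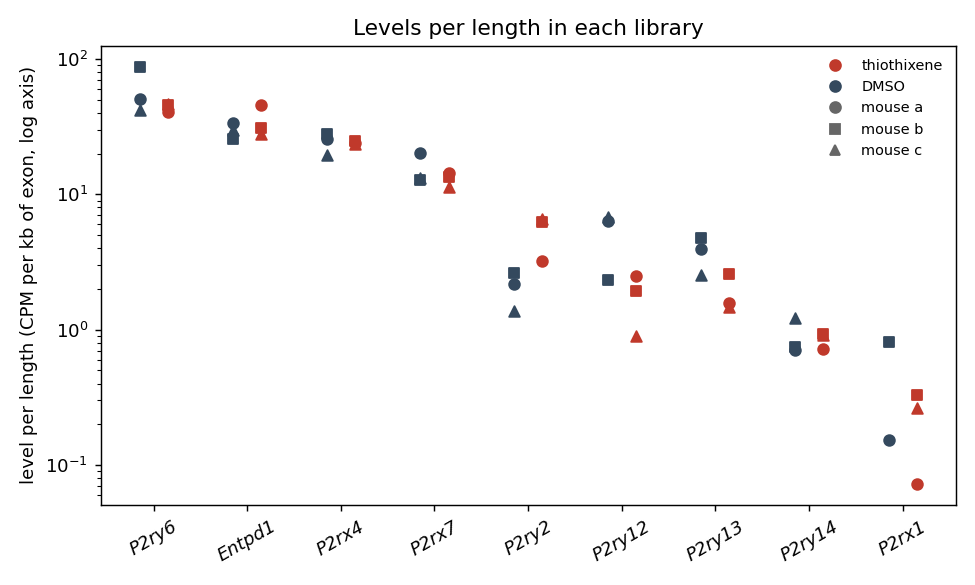
Level per length of the 9 genes (CPM per kb of exon, log axis) in each library, coloured by treatment with a symbol per mouse. P2rx7 and the 3 genes to its left were at 11.4 or more in every library and the other 5 at 6.84 or less, and the DMSO library of mouse c, with 0 counts, is not drawn for P2rx1.

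Levels can be compared between genes per length. In CPM per kb of annotated exon, averaged over the 6 libraries, P2ry6 stood at 52.1 ± 17.8, Entpd1 at 32.2 ± 7.08, P2rx4 at 24.3 ± 2.84 and P2rx7 at 14.2 ± 3.10 (SD, n = 6). P2ry2 followed at 3.70 ± 2.19, P2ry12 at 3.46 ± 2.48, P2ry13 at 2.82 ± 1.31, P2ry14 at 0.873 ± 0.195 and P2rx1 at 0.271 ± 0.289. A gap without overlap in any library lay between the 4 genes of highest level and the other 5. P2ry13 exceeded P2ry14 in 6 of 6 libraries without overlap, but the lowest P2ry12 level (0.891) lay within the range of P2ry14 (0.711 to 1.22). P2ry2, P2ry12 and P2ry13 were not ordered beyond their spread: P2ry2 exceeded P2ry12 in 4 of 6 libraries and P2ry12 exceeded P2ry13 in 3 of 6. On the length of the longest transcript P2rx4 (43.9) stood just above Entpd1 (42.6), and the other ranks were as given.

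The other P2Y-type and P2X genes that could be tested had log2 fold changes above 0. Of 5 further P2Y-type genes 2 were tested, both above 0. P2ry1, the Gq-coupled ADP receptor gene, was above all DMSO libraries in every thiothixene library, as were 3.88% of all tested genes. Levels were 20.0, 15.7 and 15.3 CPM in mice a, b and c against 6.74, 7.60 and 12.8 CPM. The log2 fold change was 0.91 (SE 0.37). Log2 ratios within mice a, b and c were 1.57, 1.05 and 0.26. The fitted value was 0.60 without mouse a and 1.33 without mouse c. The ADP receptor genes lay on both sides of 0, with P2ry1 above it and the Gi-coupled P2ry12 and P2ry13 below. P2ry10b, a relative by sequence, had a log2 fold change of 0.59 (SE 0.52), which was 0.22 without thiothixene in mouse a, 0.24 without DMSO in mouse b and 1.22 without DMSO in mouse c. Among 4 further P2X genes 3 were tested and all 3 had values above 0, with P2rx3 at 0.37 (SE 0.54) and P2rx6 at 1.45 (SE 1.21), both at low counts (22 to 142 and 0 to 41 per library). The value of P2rx6 was 2.65 without DMSO in mouse b and 0.84 without DMSO in mouse c, and that of P2rx3 was near 0 without thiothixene in mouse c. In neither group did a gene pass the adjusted test.

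Genes that make, remove or carry the ligands lay on both sides of 0 without a call. Of 16 further ectonucleotidase genes 9 were tested, 5 above and 4 below 0 with a median of 0.05, and Entpd7 (0.25, SE 0.30) and Enpp1 (-0.14, SE 0.33) were the most counted. Entpd4 and its near copy Entpd4b were among the 9 and their values are uncertain, since reads may be split between them. Nt5e, the CD73 gene that turns AMP into adenosine, had 1 to 70 counts per library. Adenosine receptor, transport and metabolism genes had 8 of 13 tested, 4 on each side, with a median of -0.07. Slc29a1, a plasma membrane nucleoside transporter, was at -0.16 (SE 0.41) and its lysosomal relative Slc29a3 at 0.49 (SE 0.29). Nucleotide release channels and the vesicular transporter had 10 of 12 tested, 7 above and 3 below 0 with a median of 0.13. Lrrc8d, a volume-regulated channel subunit, was at 0.33 (SE 0.28) and Calhm2 at 0.08 (SE 0.31). Gja1, the connexin 43 gene, named after its values were seen, had the smallest p in that group, at -1.20 (SE 0.44), with 4.73 ± 1.48 CPM against 10.8 ± 4.19 CPM (SD, n = 3).

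Signalling genes downstream lay on both sides of 0, with log2 fold changes from -0.82 to 0.39. G protein, phospholipase C and IP3 receptor genes had 15 of 16 tested, 8 above and 7 below 0, with a median of 0.08. The Gi subunit gene Gnai2 was at -0.38 (SE 0.41) and Rhoa at -0.21 (SE 0.25). P2X7 partners and inflammasome genes had 12 of 12 tested, 4 above and 8 below 0, with a median of -0.29. Ninj1, which ruptures the membrane of dying cells, was at -0.28 (SE 0.64) and Nek7, the NLRP3 partner, at -0.03 (SE 0.40). Neighbours of the 9 loci were tested in 4 of 7 cases, with Camkk2, beside P2rx4, at 0.06 (SE 0.27) and Fchsd2, near P2ry2, at -0.19 (SE 0.42).

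P2ry12 and P2ry13 are known as genes of resting microglia, and a list of such homeostatic genes was read beside them. Of 9 genes 7 were tested and all 7 were below 0, with a median of -0.68 against -0.04 for all tested genes, and none passed the adjusted test. Of the 7 tested macrophage markers, which share Csf1r with this list, 6 were below 0 as well, with a median of -0.35. Sall1, a defining microglial factor, was at 0 counts in every library, and Siglech had 13 counts in total. Csf1r, the receptor for macrophage growth factor, was at -0.46 (SE 0.28). Fcrls and Cx3cr1, named after their values were seen, were at -1.58 (SE 0.46) and -0.68 (SE 0.30). Fcrls stood at 38.8 to 41.0 CPM with thiothixene and at 135, 176 and 47.7 CPM with DMSO in mice a, b and c, so its lowest DMSO library was that of mouse c, whereas for P2ry12 it was that of mouse b. In bulk libraries, fewer cells that express a gene and less RNA per cell cannot be told apart.

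**Figure D5:**
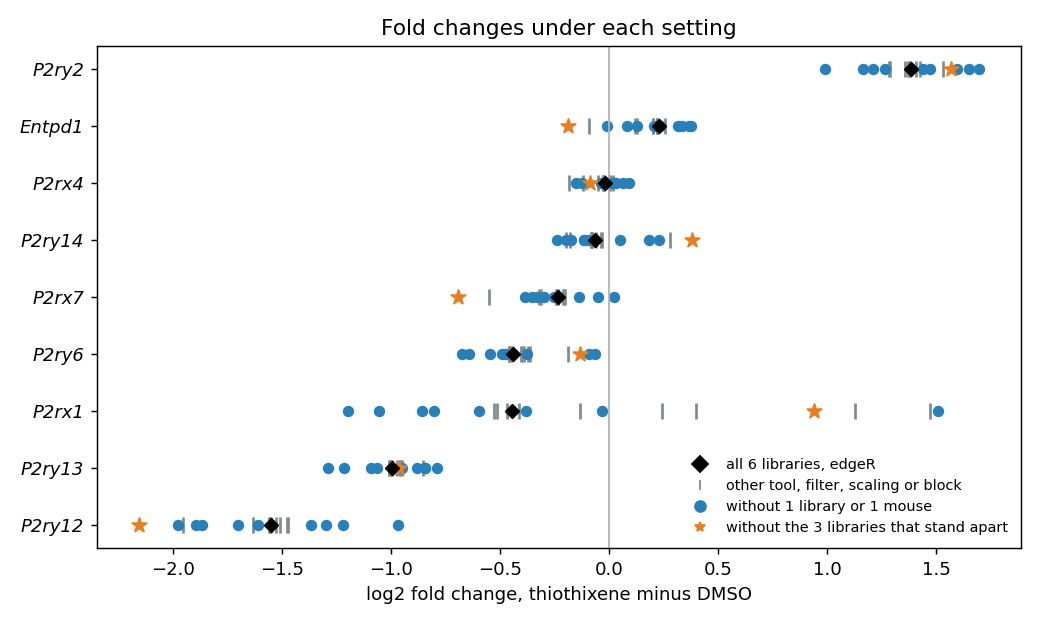
Log2 fold changes of the 9 genes (x axis) in edgeR over all 6 libraries (black) and under each alternative setting. P2ry2, P2ry6, P2ry12 and P2ry13 kept their sign under all 20 settings, while P2rx1 ran from -1.20 to 1.51.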

How the data were processed

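RNA from 6 macrophage libraries (3 mice, each with thiothixene and DMSO) was read as paired ends. The authors deposited raw gene counts, 1 table per library, not normalized. STAR 2.7.11b, Trim Galore 0.6.10, FastQC 0.11.8, DESeq2 1.44 and mm10 appear without roles, per the submitters' processing notes. What program counted reads, with which strand setting and annotation, is not given in the sources used here. Rows that name no gene were left out, of which reads assigned to no annotated feature made up 43.07% to 44.35% of each table.

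Symbols, positions and lengths came from GENCODE M21 (GRCm38), where 52073 of 56691 identifiers matched, and promoter windows from RefSeq. Exon lengths may differ from those of the release used for counting. Testing used the robust quasi-likelihood fit of edgeR 4.0.16 in R 4.3.3 with treatment alone in the model, TMM scaling, filterByExpr and Benjamini-Hochberg adjustment over all genes at 0.05. CPM are TMM-scaled. Correlations used log2 CPM with a prior count of 2. Alternatives used DESeq2 1.42.0, limma 3.58.1, splines of GC content and length (5 degrees of freedom) and left-out libraries. The fit was tested on simulated data first. The members and all lists were chosen with earlier results of these data known. All members are named, with the 2 most counted genes of each other list, and others where stated; a gene so chosen is not reported here.

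Libraries are paired by mouse, per the titles. Deviations from the group means correlated at -0.131, 0.318 and -0.301 for mice a, b and c. The highest value, 0.486, was between thiothixene of mouse a and DMSO of mouse c, so these correlations do not show the pairing. The replicate block left 0 genes called, as without it. Limits from 0 counts (3 counts) cover counting error only.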

Additional observations from a re-analysis of the deposited data

How the results depend on the processing

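Under edgeR 0 genes were called with the replicate block, RLE size factors, GC and length offsets, CPM of at least 1 in 3 libraries, or any left-out library or mouse, and limma-voom called 0. The count was 1 with no low-count filter, 8 in DESeq2, 25 in limma-voom with library quality weights and 1105 without the 3 libraries that stand apart. DESeq2 without the filter, chosen after seeing the data, called 2. Except in the fit without the 3 libraries that stand apart, no member was called under these settings. In that fit the lone DMSO library is assumed to vary like the thiothixene ones. The calls of that fit, P2ry2, P2ry12 and P2rx7 among them, are therefore not counted here. The stricter CPM filter and leaving out mouse b removed P2rx1 from the test. Members whose groups did not overlap numbered 1 with TMM, 2 on plain totals and 2 on RLE size factors, the added member being P2ry13. Of all tested genes, 6.65% did not overlap with TMM. On plain totals 3.95% were higher and 2.47% lower with thiothixene, and on RLE size factors 3.79% and 2.87%.

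P2ry2, P2ry6, P2ry12 and P2ry13 kept their direction under all 20 settings. Of the other log2 fold changes named, those that changed sign did so as follows, and the cause was not tested. With the replicate block P2rx1 was 0.24, Ninj1 0.011 and Nek7 0.082. With no low-count filter P2rx4 was 0.019. In limma-voom P2rx1 was 1.47, P2rx4 0.0040, Slc29a1 0.0087, Ninj1 0.10 and Nek7 0.062. With quality weights P2ry14 was 0.28, P2rx1 1.13, Entpd1 -0.093, P2rx3 -0.077, Slc29a1 0.068, Calhm2 -0.051, Ninj1 0.28, Camkk2 -0.024 and Lncppara -0.35. With GC and length offsets Camkk2 was -0.14, and with the replicate block added it was -0.14 and P2rx1 0.40. Without the 3 libraries that stand apart P2ry14 was 0.38, P2rx1 0.94, Entpd1 -0.19, P2rx3 -0.011, Slc29a1 0.030, Calhm2 -0.11, Ninj1 0.34, Camkk2 -0.031, Dtnb -0.037, Lncppara -0.56 and Boll -0.089.

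Leaving out single libraries or mice turned the sign within these ranges: P2ry14 -0.24 to 0.23, P2rx1 -1.20 to 1.51, P2rx4 -0.15 to 0.094, P2rx7 -0.39 to 0.024 and Entpd1 -0.010 to 0.38. Outside the members the ranges were P2rx3 -0.17 to 1.12, Enpp1 -0.34 to 0.16, Slc29a1 -0.48 to 0.32, Calhm2 -0.16 to 0.41, Gnai2 -0.75 to 0.091, Ninj1 -0.94 to 0.65, Nek7 -0.33 to 0.49, Camkk2 -0.075 to 0.29, Fchsd2 -0.52 to 0.25 and Lncppara -0.14 to 0.95. Without a change of sign, P2ry10b ran from 0.11 to 1.35 and P2rx6 from 0.84 to 2.65. Values for P2rx1 and P2rx6 are limited by depth, at 0 to 41 counts per library.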
